A study of Mus musculus with 6 samples.

Results

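The HoxD cluster holds the 9 Hoxd genes Hoxd1, Hoxd3, Hoxd4, Hoxd8, Hoxd9, Hoxd10, Hoxd11, Hoxd12 and Hoxd13, which were chosen by name and account for 9 of 35506 genes in the deposited table. They were measured by RNA-seq in tailbud containing presomitic mesoderm, dissected from FVB/NJ mouse embryos at embryonic day 8.5 with 8 somites. The embryos were Smchd1+/+ (WT, n = 3) or Smchd1MommeD43/MommeD43 (MommeD43, n = 3), each embryo giving 1 library. SMCHD1 is a non-canonical protein of the structural maintenance of chromosomes family that takes part in gene silencing, and MommeD43 is a missense allele of its gene from a mutagenesis screen. The comparison asks whether Hox genes are expressed differently in the mutant tailbud. Replicate 1 of each group was male and replicates 2 and 3 were female, and both males came from the same mother.

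Hox genes encode homeodomain transcription factors that give the body axis its positional identity. In mammals they lie in 4 clusters, and within a cluster genes are switched on in the order in which they lie, so that genes of low number are active early and anteriorly and genes of high number late and posteriorly. Genes of the same number in different clusters are paralogues. The tailbud supplies the cells of the trunk and tail, and the genes Hoxd10 to Hoxd13, related to the Drosophila gene Abdominal-B, are known for the lumbar, sacral and tail regions, the limbs and the genitalia.

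The 9 genes occupy 96.8 kb on the forward strand of chromosome 2, from chr2:74668310-74671599 (Hoxd13) to chr2:74762980-74765142 (Hoxd1) in build GRCm38. The start regions of 3 posterior genes are shown because the values below turn on them. Hoxd10 had the lowest single library relative to its group, Hoxd12 had no read, and Hoxd13 was lower in MommeD43 at an unadjusted p under 0.05. Each is the 250 bases before the RefSeq start (GRCm38.p6, forward strand, 5′ to 3′), at chr2:74691641-74691890 for Hoxd10, chr2:74674763-74675012 for Hoxd12 and chr2:74667975-74668224 for Hoxd13. Capitals mark a match to TATAAA, the TATA box, on either strand. The forward and reverse matches in Hoxd13 overlap.
Hoxd10: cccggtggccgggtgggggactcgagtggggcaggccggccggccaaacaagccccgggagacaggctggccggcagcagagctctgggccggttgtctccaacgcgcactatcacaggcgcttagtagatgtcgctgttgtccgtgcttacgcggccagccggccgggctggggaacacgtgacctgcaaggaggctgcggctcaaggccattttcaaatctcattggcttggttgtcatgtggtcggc
Hoxd12: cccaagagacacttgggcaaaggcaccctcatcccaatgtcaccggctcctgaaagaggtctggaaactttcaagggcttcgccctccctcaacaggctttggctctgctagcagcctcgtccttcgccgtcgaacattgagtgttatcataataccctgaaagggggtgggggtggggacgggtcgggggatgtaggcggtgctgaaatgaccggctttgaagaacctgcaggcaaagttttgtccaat
Hoxd13: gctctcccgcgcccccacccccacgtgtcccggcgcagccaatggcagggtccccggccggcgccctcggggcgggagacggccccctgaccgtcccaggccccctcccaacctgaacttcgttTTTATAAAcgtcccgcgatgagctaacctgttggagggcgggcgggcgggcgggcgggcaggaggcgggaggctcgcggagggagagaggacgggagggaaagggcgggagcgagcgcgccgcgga

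These windows differed in base composition. The Hoxd13 window had a GC content of 74.4% and 31 CpG dinucleotides, and its TATAAA match began 124 bases before the start. The Hoxd10 window had 65.6% GC and 20 CpG. The window of Hoxd12, the gene without a read, had 55.6% GC and 10 CpG, and the medians over 32851 promoters were 52.4% and 6. Base composition did not follow the level along the cluster, as the window of Hoxd4, the most abundant member, had the lowest GC content of the 10 windows of the 9 genes, at 40.4%, with 3 CpG. TATAAA was found in 2 of the 9 genes, Hoxd13 and Hoxd4, and in 12.4% of all promoters. The motif TTTATNG, which is bound by caudal (CDX) factors, was found on either strand in 1 gene, Hoxd4, 45 bases before its start, and in 9.8% of all promoters. CDX proteins are known regulators of Hox genes in the posterior embryo, and a match here is a match of letters only.

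The library totals, inferred from the deposited levels, ranged from 10957916 reads (MommeD43 replicate 1) to 47298348 reads (MommeD43 replicate 2). Totals under 15000000 reads were found for 2 MommeD43 libraries and none of the WT libraries. Of the 12 tailbud markers, all 12 were detected, and their summed level was 659 to 907 RPKM in WT and 670 to 798 RPKM in MommeD43. The sample labels give the source as NSCs but the tissue as tailbud, which these markers match. Among markers of other tissues, the summed level of 7 primitive blood genes was 8.83 to 484 RPKM in WT and 22.6 to 219 RPKM in MommeD43. That of 8 yolk sac endoderm genes was 136 to 277 RPKM in WT and 37.2 to 431 RPKM in MommeD43, highest in MommeD43 replicate 1. Summed levels of markers of hindgut (187 to 200 RPKM in WT, 184 to 206 in MommeD43), allantois and lateral mesoderm (175 to 191 and 176 to 204), neural tube (22.5 to 24.6 and 22.5 to 24.9) and somite (4.55 to 5.70 and 4.04 to 5.64, Uncx without a read) overlapped between groups. So did those of notochord (14.9 to 21.1 and 10.3 to 18.7) and endothelium (24.0 to 41.9 and 34.1 to 44.7). In tissue, fewer cells of a type and less RNA per cell cannot be told apart.

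Levels along the cluster fell into an abundant anterior and central part and a scarce posterior part. RPKM, reads per kilobase of exon scaled to the size of the library, is a level per length and allows genes to be compared. Over the 6 libraries the mean level was 33.9 RPKM for Hoxd4, 29.0 for Hoxd1, 16.5 for Hoxd9, 9.79 for Hoxd8 and 6.65 for Hoxd3. It was 1.71 RPKM for Hoxd13, 1.09 for Hoxd10 and 0.311 for Hoxd11. No read of Hoxd12, a gene known from the distal limb, was recovered in any library, and 3 reads, taken as the floor of a library, would have made 0.0250 to 0.108 RPKM. Hoxd4 was above Hoxd1 in 4 of 6 libraries, so these neighbours in the order of levels did not differ beyond their spread. Each of the other neighbours with reads was in the same order in 6 of 6 libraries, although the log2 difference of Hoxd13 over Hoxd10 was 0.75 ± 0.80 (SD, n = 6).

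**Figure D1:**
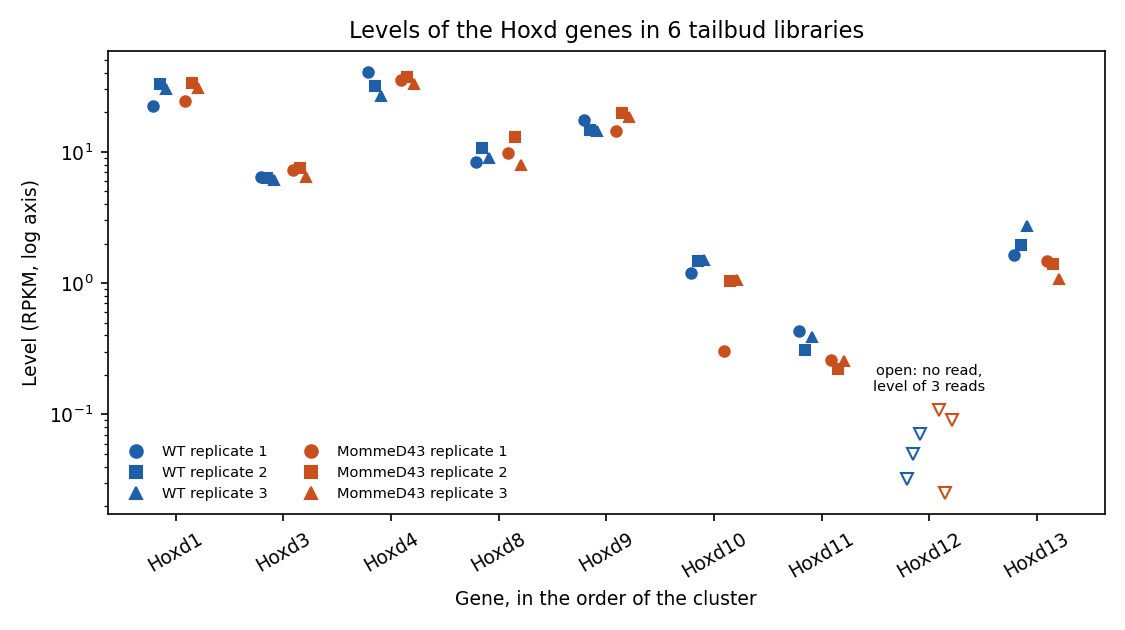
Level of each Hoxd gene in RPKM (log axis) in the 6 libraries, in the order of the cluster, with WT in blue and MommeD43 in orange. Hoxd1 to Hoxd9 lie between 6.09 and 40.6 RPKM, Hoxd10, Hoxd11 and Hoxd13 between 0.221 and 2.71 RPKM, and open triangles mark the level of 3 reads for Hoxd12, which had none.

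The order of level did not follow the order of position. Going from Hoxd1 towards Hoxd13, the log2 level fell by 2.11 from Hoxd1 to Hoxd3, rose by 2.34 to Hoxd4, fell by 1.80 to Hoxd8 and rose by 0.76 to Hoxd9. It then fell by 4.07 ± 0.84 (SD, n = 6) from Hoxd9 to Hoxd10, a 16.8-fold step and the widest of the 7 measured. Hoxd11 was −1.69 relative to Hoxd10 on the log2 scale, and Hoxd13, the last gene of the cluster, was 2.44 ± 0.36 above Hoxd11, or 5.43-fold. All 7 steps had 1 direction in 6 of 6 libraries. In an exact two-sided sign-flip permutation test over libraries each gave p = 0.03125, the smallest p possible with 6 libraries, and adjustment over the 7 pairs left it at 0.03125. Without division by exon length, the step from Hoxd10 to Hoxd11 no longer had 1 direction (log2 difference −0.48, exact permutation p = 0.1875), and the other 6 kept theirs.

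The step from Hoxd9 to Hoxd10 was the one of the 7 whose WT and MommeD43 libraries did not overlap. In WT the log2 level of Hoxd10 relative to Hoxd9 was −3.85, −3.33 and −3.27 in replicates 1, 2 and 3, that is lower by 14.5-, 10.04- and 9.67-fold. In MommeD43 it was −5.58, −4.24 and −4.13, that is lower by 47.9-, 18.9- and 17.5-fold. The step was thus deeper in each MommeD43 library than in each WT library, with MommeD43 replicate 1 the furthest. This is a description of a ratio of 2 genes and was not tested between genotypes.

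**Figure D2:**
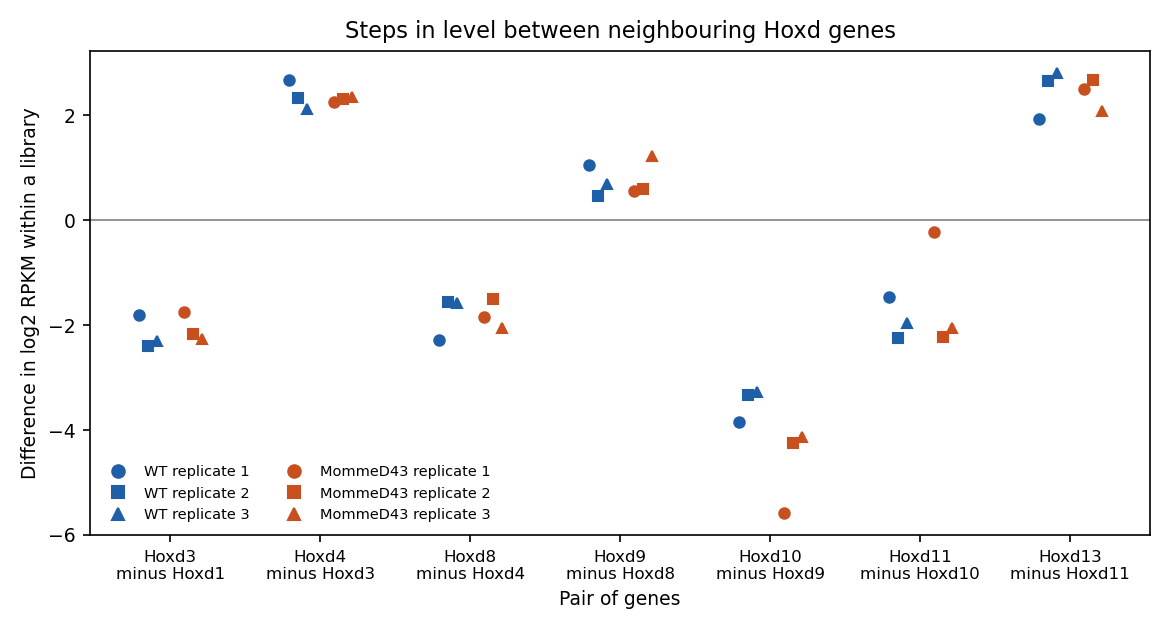
Difference in log2 RPKM between neighbouring Hoxd genes within each library, for the 7 pairs with reads, with WT in blue and MommeD43 in orange. Every pair lies on 1 side of 0 in all 6 libraries, and the pair Hoxd10 minus Hoxd9 shows WT from −3.85 to −3.27 and MommeD43 from −5.58 to −4.13.

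Reads of Hoxd3 and Hoxd4 were not separate. In the annotation, 62.4% of the exon bases of Hoxd3 and 52.3% of those of Hoxd4 lie in exons of another gene on the same strand. These are 388 bases shared by the pair and the exons of Gm28230, a transcript that joins them and shares 95.8% of its exon bases with them. Their levels are therefore uncertain, and a sum over the cluster counts some reads more than once. For Hoxd11 the shared part was 10.8% and for Hoxd10 5.73%, both with the noncoding transcript Gm28309. No exon bases of Hoxd1, Hoxd8, Hoxd9, Hoxd12 or Hoxd13 were shared.

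Between genotypes, the 3 measurable posterior genes were lower in every MommeD43 library than in every WT library, whereas the 5 anterior and central genes had log2 fold changes of 0.07 to 0.17. None of these differences passed the test across all genes. Of the 9 genes, 8 passed the filter on low values and were tested with limma, and 0 had an adjusted p under 0.05, against 0 of 13617 autosomal genes tested (percent called 0). At an unadjusted p under 0.05, limma gave 1 Hoxd gene lower (Hoxd13), against 0.977% of all genes, and 0 higher, against 1.42%, which together make 2.4% of all genes. Voom on recovered reads gave 0 with an adjusted p under 0.05 and 2 Hoxd genes at an unadjusted p under 0.05, Hoxd11 and Hoxd13, against 3.12% of all genes. The groups did not overlap for 3 Hoxd genes lower in MommeD43, against 3.55% of all genes, and for 1 higher, against 3.53%. The median log2 fold change of the 8 genes was 0.09, with 3 lower and 5 higher, and that of all genes was 0.00. Groups of 3 against 3 cannot give an exact permutation p below 0.1.

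**Figure D3:**
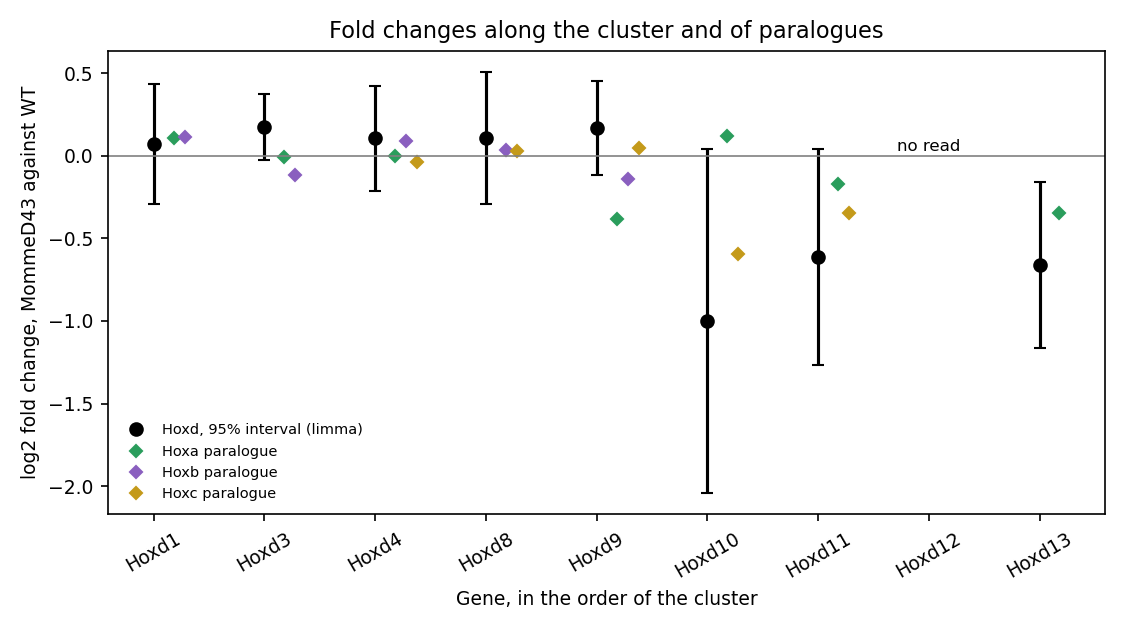
Log2 fold change of MommeD43 against WT for each Hoxd gene tested (black points, 95% interval from limma) in the order of the cluster, with the tested paralogues of the same number as diamonds. Hoxd1 to Hoxd9 lie between 0.07 and 0.17, Hoxd10, Hoxd11 and Hoxd13 between −1.001 and −0.61, and the intervals are wider for the scarce genes.

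Hoxd13 (ENSMUSG00000001819), the last gene of the cluster, is known for shaping digits, genitalia and the end of the axis. It was read 150, 115 and 112 times in WT replicates 1, 2 and 3 and 40, 165 and 35 times in MommeD43. Its level was 1.65, 1.96 and 2.71 RPKM in WT and 1.47, 1.40 and 1.08 RPKM in MommeD43. The groups did not overlap, and the lowest WT library and the highest MommeD43 library were both the male replicate 1. The counting interval of WT replicate 1, 1.40 to 1.94 RPKM, overlapped those of every MommeD43 library. The mean was 2.11 ± 0.547 RPKM (SD, n = 3) in WT and 1.32 ± 0.211 RPKM in MommeD43. The log2 fold change was −0.66 ± 0.22 (SE), with a 95% interval of −1.16 to −0.16 (limma, adjusted p = 0.999). Without WT replicate 3 it was −0.46.

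Hoxd10 (ENSMUSG00000050368, chr2:74691924-74695105), which is known for lumbar identity and limb motor neurons, was the member with the widest spread in MommeD43. Its reads were 80, 63 and 45 in WT and 6, 89 and 25 in MommeD43. The level was 1.20, 1.47 and 1.49 RPKM in WT against 0.302, 1.04 and 1.05 RPKM in MommeD43. The 3 WT libraries lay close together, and MommeD43 replicate 1 lay apart from the other 2 MommeD43 libraries. Its exact binomial 95% interval, 0.111 to 0.656 RPKM, covers counting error only. The counting intervals of MommeD43 replicates 2 and 3 overlapped those of every WT library. The SD of log2 levels was 0.17 in WT and 1.03 in MommeD43. The log2 fold change was −1.001 ± 0.45 (SE), with a 95% interval of −2.04 to 0.04 (limma, adjusted p = 0.999). MommeD43 replicate 1 was the shallowest library and the one with the highest yolk sac endoderm sum, and the part of either in this value was not tested. Without it the log2 fold change of Hoxd10 was −0.40, nearer to 0 than those of Hoxd11 (−0.66) and Hoxd13 (−0.75) without the same library.

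Hoxd11 (ENSMUSG00000042499, chr2:74679557-74687016), known for the sacral region and the forearm, was the scarcest gene with reads. It was read 67, 31 and 27 times in WT and 12, 44 and 14 times in MommeD43. Its level was 0.434, 0.312 and 0.386 RPKM in WT and 0.260, 0.221 and 0.254 RPKM in MommeD43. All MommeD43 libraries were below all WT libraries, but the counting intervals of WT replicates 2 and 3 overlapped those of every MommeD43 library. The log2 fold change was −0.61 ± 0.29 (SE), with a 95% interval of −1.27 to 0.04 (limma, adjusted p = 0.999). Counting error at 12 to 67 reads limits what can be said of this gene.

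**Figure D4:**
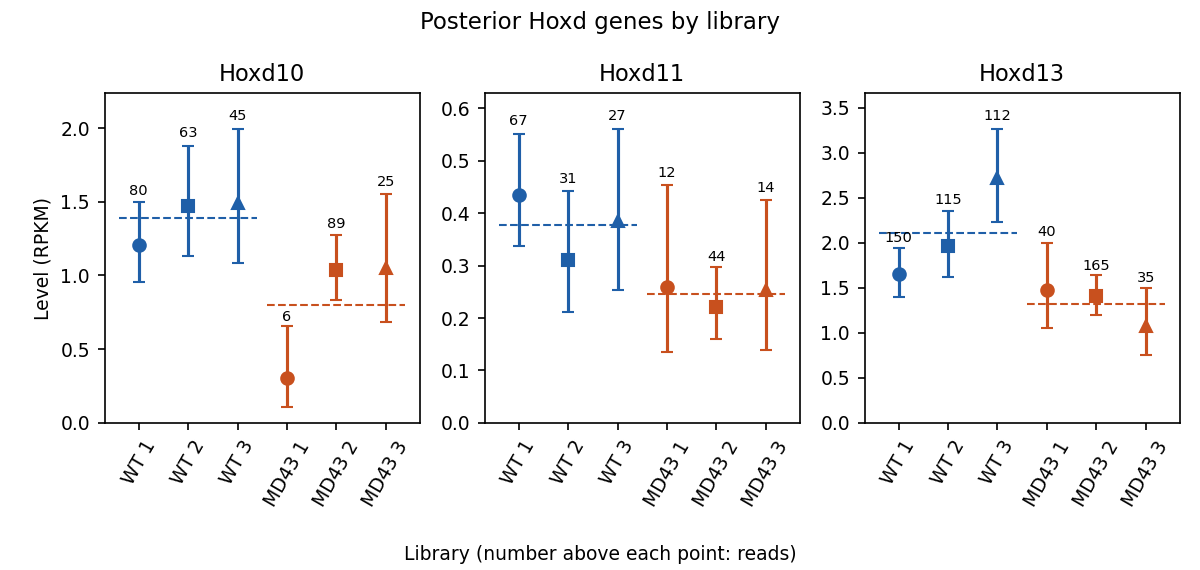
Level in RPKM of Hoxd10, Hoxd11 and Hoxd13 in each library (WT in blue, MommeD43, written MD43, in orange), with exact binomial 95% intervals for counting error, read counts above the points and group means as dashed lines. In each panel all 3 MommeD43 points lie below all 3 WT points, and MommeD43 replicate 1 is the lowest for Hoxd10, with 6 reads.

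The posterior genes added together showed the same split. The summed level of Hoxd10 to Hoxd13 was 3.29, 3.74 and 4.59 RPKM in WT and 2.03, 2.66 and 2.38 RPKM in MommeD43. As a share of the summed level of all 9 genes this was 3.34%, 3.74% and 5.07% in WT and 2.18%, 2.35% and 2.42% in MommeD43. The shares did not overlap, and no MommeD43 library reached the lowest WT library. The summed level of all 9 genes was 90.5 to 99.9 RPKM in WT and 93.3 to 113 RPKM in MommeD43, and these ranges overlapped. As the sums rest on the values given above, they are not further evidence.

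Hoxd3 (ENSMUSG00000079277, chr2:74711927-74748442), known for the first neck vertebrae, was higher in each MommeD43 library. Its level was 6.37, 6.26 and 6.09 RPKM in WT and 7.32, 7.46 and 6.38 RPKM in MommeD43. The gap was narrow, with 6.37 RPKM in the highest WT library and 6.38 RPKM in the lowest MommeD43 library, and it closed under median-ratio scaling of the libraries. The log2 fold change was 0.17 ± 0.09 (SE, limma, adjusted p = 0.999).

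For the remaining genes the groups overlapped. Hoxd9 (ENSMUSG00000043342), a neighbour of Hoxd10 on the active side of the step, was at 17.4, 14.7 and 14.4 RPKM in WT and 14.4, 19.6 and 18.4 RPKM in MommeD43, with a log2 fold change of 0.17 ± 0.12 (SE). Hoxd8 (ENSMUSG00000027102) was at 8.40, 10.7 and 8.92 RPKM in WT and 9.81, 12.98 and 7.91 RPKM in MommeD43, with a log2 fold change of 0.11 ± 0.17. Both genes are central members of the cluster, and Hoxd8 had the lowest and the highest of its 6 values in MommeD43. Hoxd4 (ENSMUSG00000101174), a gene of the hindbrain and neck, was at 40.6, 31.6 and 26.6 RPKM in WT and 35.1, 36.9 and 32.8 RPKM in MommeD43, with a log2 fold change of 0.11 ± 0.14. Hoxd1 (ENSMUSG00000042448), the most anterior member, was at 22.3, 32.9 and 29.9 RPKM in WT and 24.6, 33.6 and 30.7 RPKM in MommeD43, with a log2 fold change of 0.07 ± 0.16. For Hoxd1 the male library was the lowest of its group in both genotypes.

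The genotype effect was also set between the male pair and the females, in a fit with 2 residual degrees of freedom. As each genotype has 1 male, the spread came from the female libraries and from limma's pooling over genes, and the males are assumed to vary alike. Of the 8 genes, 0 differed at an adjusted p under 0.05 (limma), against 0.272% of all genes, and 3 differed at an unadjusted p under 0.05, Hoxd4, Hoxd9 and Hoxd10, against 10.8% of all genes. The log2 fold change of Hoxd10 was −1.996 in the male pair and −0.50 in female libraries (limma interaction, adjusted p = 0.229), and the MommeD43 male is the library with 6 reads. That of Hoxd9 was −0.27 for males and 0.38 for females (adjusted p = 0.129). For Hoxd13 the male pair gave −0.17 and the females −0.91 (adjusted p = 0.541). Sex, mother and single libraries cannot be told apart here.

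The genes around the cluster held no call by the adjusted p. Gm28309, which runs from Hoxd11 to Hoxd10, was read 46, 18 and 9 times in WT and 5, 18 and 5 times in MommeD43, with a log2 fold change of −0.99 ± 0.30 (limma, adjusted p = 0.999). As 89.7% of its exon bases lie in exons of those genes, its reads cannot be told apart from theirs. Evx2, an even-skipped homologue next to Hoxd13, was read 10, 16 and 10 times in WT and 2, 14 and 0 times in MommeD43 and was too scarce to test. Of the 9 noncoding or read-through genes between Lnpk and Mtx2, 4 were tested. Of these 1, Gm28309, was lower at an unadjusted p under 0.05 (limma), against 0.977% of all genes. It met the filter, a CPM of 0.497, in every WT library (0.541 to 1.26) and in no MommeD43 library (0.381 to 0.456). A gene admitted by WT alone is tilted towards a lower value in MommeD43, so no conclusion is drawn from this p. Haglr, an antisense RNA between Hoxd3 and Hoxd1, had a log2 fold change of 0.03 ± 0.16, and Hoxd3os1 one of 0.39 ± 0.35. The neighbours outside the cluster, Lnpk (an endoplasmic reticulum protein) and Mtx2 (a mitochondrial outer membrane protein), had log2 fold changes of −0.09 ± 0.11 and −0.03 ± 0.06. Of the flanking genes listed, 9 were in the deposited table and 8 were tested, and 0 had an adjusted and 0 an unadjusted p under 0.05 (limma). The groups did not overlap for 1, Atp5g3, higher in MommeD43 (0.10 ± 0.05), against 3.53% of all genes.

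Against their paralogues, the posterior Hoxd genes stood differently at each number. Hoxd13 was above Hoxa13 in 5 of 6 libraries, 1.58-fold on average, and above Hoxb13 and Hoxc13, which had 5 and 32 reads in all. Hoxd10 was below Hoxa10 (4.65-fold) and Hoxc10 (3.04-fold) in 6 of 6 libraries. Hoxd11 was 8.32-fold below Hoxa11 in 6 of 6 libraries, while it was above Hoxc11 in 2 of 6, so that these 2 did not differ beyond their spread. Hoxc12 had 0 reads in all libraries, as had Hoxd12. Of the more anterior genes, Hoxd9 was 8.09-fold below Hoxb9, the most abundant of its number, in 6 of 6 libraries, above Hoxa9 in 3 of 6 and 2.70-fold above Hoxc9 in 6 of 6. Hoxd8 was 4.73-fold below Hoxb8 and 5.31-fold below Hoxc8 in 6 of 6, whereas Hoxd4 was 7.08-fold above Hoxa4 and 2.97-fold above Hoxb4 in 6 of 6 and below Hoxc4 in 5 of 6. The folds of Hoxd4 are uncertain, as 52.3% of its exon bases are shared with other genes on the same strand. The order of all these levels is a description of this tissue at 1 stage.

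**Figure D5:**
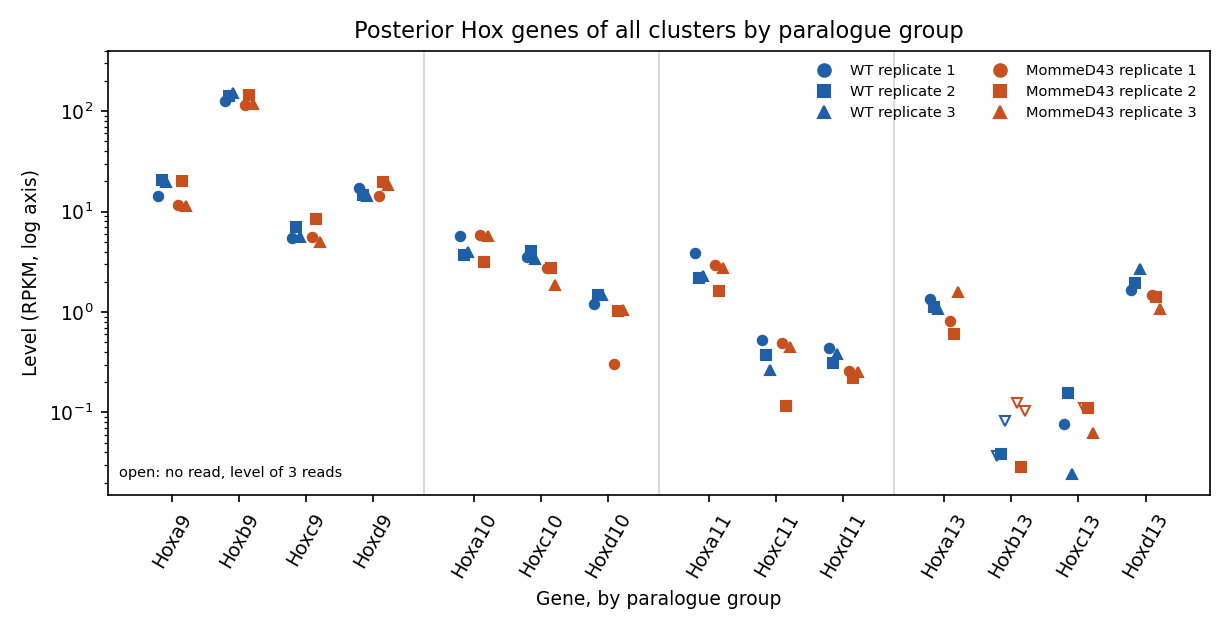
Level in RPKM (log axis) of the Hox genes numbered 9, 10, 11 and 13 in each library, grouped by number, with WT in blue and MommeD43 in orange and open triangles at the level of 3 reads where a library had none. Hoxd10 lies below Hoxa10 and Hoxc10 in every library, and Hoxd13 lies above Hoxa13 in 5 of 6.

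In the genotype comparison the Hox genes of the other 3 clusters, among them numbers without a Hoxd member, were split between both directions. Of 30 Hox genes in the other 3 clusters, 27 were tested, 14 lower and 13 higher, with a median log2 fold change of 0.00. Of these, 0 had an adjusted p under 0.05 and 2 an unadjusted p under 0.05, both lower, against 0.977% of all genes. Those were Hoxc10, a paralogue of Hoxd10 (log2 fold change −0.59 ± 0.18, limma, adjusted p = 0.999), and Hoxa6 (−1.19 ± 0.43, limma, adjusted p = 0.999). Hoxc10 was the 1 of the 27 whose groups did not overlap, lower in MommeD43, which is about the share of all genes, 3.55%. Its levels were 3.37 to 4.04 RPKM in WT and 1.84 to 2.77 RPKM in MommeD43. The paralogue Hoxa10 had a log2 fold change of 0.12 ± 0.26. For the tested paralogues of Hoxd13 and Hoxd11, the log2 fold change was −0.35 ± 0.33 for Hoxa13, −0.17 ± 0.29 for Hoxa11 and −0.35 ± 0.58 for Hoxc11. For those of Hoxd9 it was −0.38 ± 0.23 for Hoxa9, −0.14 ± 0.10 for Hoxb9 and 0.05 ± 0.20 for Hoxc9.

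Regulators of axial extension showed no genes past the test. Of 12 genes listed, 11 were tested, among them Cdx1, Cdx2, Gdf11, Wnt3a, Fgf8, T and Lin28a, and Cdx4 was not. Of the 11, 0 had an adjusted or an unadjusted p under 0.05 by limma. There were 6 lower and 5 higher, with a median log2 fold change of −0.01. The 6 tested blood markers and the 8 yolk sac endoderm markers all had log2 fold changes below 0, with medians of −0.90 and −1.11, as had all 6 notochord markers, with a median of −0.16. Of 7 endothelial markers 6 were higher, with a median of 0.39. In these 4 lists 0 genes had an adjusted p under 0.05. At an unadjusted p under 0.05 (limma), 1 of 7 endothelial, 1 of 12 tailbud (Hes7) and 1 of 10 allantois and lateral mesoderm markers were higher, against 1.42% of all genes. Levels in the 4 lists ranged widely within both genotypes, as given above, and their part in the Hoxd values was not tested.

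The genes most like the posterior Hoxd genes across the 6 libraries were not Hox genes. The mean of the log2 levels of Hoxd10, Hoxd11 and Hoxd13, each centred on its own mean, was 0.28, 0.30 and 0.56 in WT and −0.69, −0.20 and −0.25 in MommeD43. Of 13609 genes compared, Ccdc159 had the smallest root mean square difference from it, at 0.103 log2 units, followed by Ccdc106 at 0.122 and Ryr1, a calcium channel of muscle, at 0.149, with a median of 0.444 over all. Among Hox genes of other clusters the nearest were Hoxa7 at 0.282, Hoxa9 at 0.328 and Hoxb9 at 0.335, at ranks 141, 416 and 508. Over 6 libraries this is a description of likeness only.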

How the data were processed

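RNA of dissected tailbud was sequenced from poly(A) RNA with a stranded kit. According to the methods and the submitters' processing notes, reads were trimmed (Trim Galore 0.4.4), mapped with HISAT2 2.0.5 to GRCm38.p6 and quantified per gene in SeqMonk. The release of the gene annotation is not given in the sources used here. The values deposited by the authors are log2 RPKM per gene and library, and the 2 mean columns of the authors were not used. The number of unassigned value columns was 0.

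Exon lengths came from GENCODE M21, whose coordinates were identical for 99.4% of matched rows. Multiplying RPKM by length and library total gave whole reads (within 0.02) for 98.7% of 49787 values of up to 200 reads. The library totals were inferred by taking the lowest common level, that of genes without a read, as 0.9 read. Genes at that level are given as 0, and all read counts rest on these totals. Among 11 pairs in which a gene is covered by an abundant gene on the opposite strand, 0 had a level ratio over 0.5, so strand was taken as used.

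The filter asked for the CPM of 10 reads in a median library in no fewer than 3 libraries and for 15 reads in all. The 13617 autosomal genes that passed were tested with limma 3.58.1 (R 4.3.3) on log2 RPKM with a mean-variance trend and no pseudocount, without a replicate block. P-values are two-sided and adjusted over these genes by the Benjamini-Hochberg method. In data simulated for this comparison of 3 against 3, 86.5% of 200 genes changed 2-fold were recovered, and 3% of those changed 1.41-fold. The simulation gave all genes 1 common spread between replicates. The SE of the log2 fold change was 0.45 for Hoxd10, 0.29 for Hoxd11 and 0.22 for Hoxd13, against a median of 0.12 over all genes. The recovered shares therefore need not hold for these scarce genes. Levels of neighbouring genes were compared within libraries by an exact sign-flip permutation test. Motifs were searched on both strands. Counting intervals and the floor of 3 reads cover counting error only.

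All 9 genes, their paralogues, genes of the locus with reads, Hox genes elsewhere whose unadjusted p was under 0.05, and the 3 nearest genes by likeness are named, with markers by list. Members and lists were chosen with earlier results of these data known. Replicates were separate embryos.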

Additional observations from a re-analysis of the deposited data

How the results depend on the processing

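The count of Hoxd genes with an adjusted p under 0.05 was 0 under all 18 alternatives, which changed the pseudocount, the filter, the scaling, the covariates, the libraries or the test. Over all genes this count was also 0, except for 10 of 13617 in the females alone. Hoxd10, Hoxd11 and Hoxd13 kept their direction under all 18. Their groups stayed apart under median-ratio scaling, and leaving out libraries cannot make them overlap. An unadjusted p under 0.05 was given under 15 alternatives for Hoxd13, 8 for Hoxd10 and 4 for Hoxd11. Of all 13617 genes, 327 had an unadjusted p under 0.05 in the main fit and 187 without WT replicate 3. The count rose to 944 without WT replicate 1 and 1188 in the females alone. The alternatives reuse the same 6 libraries and are not repeated evidence. Leaving out 1 library gave log2 fold changes of −1.30 to −0.40 for Hoxd10 (nearest to 0 without MommeD43 replicate 1), −0.74 to −0.50 for Hoxd11 and −0.82 to −0.46 for Hoxd13. With a pseudocount of 1 RPKM Hoxd10 was at −0.44, Hoxd11 at −0.14 and Hoxd13 at −0.41. Hoxd3 and Hoxd9 also kept their direction under all 18, with Hoxd9 at 0.077 without MommeD43 replicate 2 and 0.30 without MommeD43 replicate 1. The direction of Hoxd1, Hoxd4 and Hoxd8 depended on single libraries. Leaving out 1 library gave −0.094 to 0.20 for Hoxd1 (below 0 without WT replicate 1 or MommeD43 replicate 2, at −0.026 for the latter), −0.039 to 0.27 for Hoxd4 (below 0 without WT replicate 3) and −0.077 to 0.28 for Hoxd8 (below 0 without MommeD43 replicate 2). The cause was not tested. The median over the Hoxd genes was −0.052 to 0.11 with 1 library left out, lowest without MommeD43 replicate 2. It was 0.22 without both libraries under 15000000 reads, an alternative chosen after seeing the data, in which the lone MommeD43 library is assumed to vary like the WT libraries. The count of Hoxd genes higher in MommeD43 without overlap was 0 with median-ratio scaling (3.7% of all genes) and 3 in the females alone (21.8% of all genes, as fewer libraries overlap less). It was 1 to 2 with 1 library left out, 2 without WT replicate 1 (13% of all genes) or MommeD43 replicate 1 (9.44%).

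The paper describes the embryos as 3 somite-matched pairs, and by the labels the males alone share a mother. Correlations of deviations from the group means were −0.03, 0.17 and −0.17 for same-numbered samples. For the other combinations they were −0.19 to 0.18. Deviations within groups of 3 cannot decide whether samples pair, and no conclusion is drawn from them. With the replicate number as a block, 0 Hoxd genes had an adjusted p under 0.05, and the median log2 fold change was 0.09. At an unadjusted p under 0.05 (limma) there were 2 Hoxd genes, Hoxd10 and Hoxd13, in place of 1. Over all genes there were 307 in place of 327. Depth limits Hoxd11, Hoxd12, Evx2 and the MommeD43 replicate 1 value of Hoxd10 most.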
